A study of Homo sapiens with 16 samples.

Results

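The long arm of human chromosome 19 carries the densest groups of zinc finger genes in the genome. The genes described here are the 155 protein-coding genes of the RefSeq table (GRCh38.p14) whose symbol is ZNF followed by digits alone and which start above 34 Mb on chromosome 19, out of 19974 protein-coding genes on chromosomes 1 to 22 and X. The rule used symbol and position and no measured value. It follows the symbol, so that zinc finger genes with other names are outside it, and the proteins themselves were not examined. The first gene inside the limit was ZNF302, which starts at position 34675979 and had an H3K4me3 peak in 2 libraries. The last one outside was ZNF507, which starts at position 32345610 and had one in all 4 H3K4me3 libraries. Neither had a peak of the other 2 marks at its ends.

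Most proteins of this family bind DNA through arrays of C2H2 zinc fingers, and many carry a KRAB box as well. The KRAB box recruits the corepressor TRIM28, and with it the methyltransferase SETDB1 and HP1 proteins, so that the bound DNA gains H3K9me3. Transposable elements are the best known targets. The genes themselves arose largely by tandem duplication and lie in clusters of related copies. H3K4me3 marks promoters, H3K27ac marks active promoters and enhancers, and H3K4me1 marks mainly enhancers. H3K9me3, DNA methylation and RNA were not analysed here.

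Toledo is an established cell line of diffuse large B-cell lymphoma, and all samples come from this line alone. One group of cultures received TP-064 at 5 uM for 6 days. TP-064 inhibits CARM1, an enzyme that methylates arginines of histones and coactivators. The controls received DMSO, its solvent, for 6 days. Each of the 3 marks had 2 chromatin immunoprecipitation libraries with DMSO and 2 with the inhibitor, which gives 12 peak lists among 16 samples, the other 4 being inputs. All DMSO libraries were sequenced on lane 3 and all inhibitor libraries on lane 4, so that lane and treatment cannot be told apart. The labels do not tell whether both libraries of a group stem from separate cultures. The p-values therefore measure the spread between these libraries alone, and it may be technical.

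The lists hold positions only and read depth is unknown, so a missing peak may be a site that fell short of the threshold for peaks. They held 10048 to 12476 peaks for H3K4me3 and 4016 to 7885 for H3K27ac. For H3K4me1 they held 25058 and 9673 with DMSO against 4094 and 4242 with the inhibitor. The first DMSO library had the most peaks of every mark. Of 8 B-cell marker genes, 8 had H3K4me3 at their ends in both DMSO libraries, against 0 of 7 T and NK cell markers, 1 of 6 myeloid markers (CD68) and 1 of 6 epithelial and stromal markers (COL1A1). In the same order, H3K27ac was in both DMSO libraries at 7, 0, 0 and 0 of these genes and H3K4me1 at 6, 3, 0 and 1. CD22, CD68 and COL1A1 had no H3K4me3 in either inhibitor library. How reads from near-identical zinc finger copies were placed is not given in the sources used here, so a peak at one copy, or its absence, is uncertain where copies are nearly identical.

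Promoter windows of RefSeq (300 bases, of which 250 lie before the start and 50 after it) were found for 135 of the 155 genes and 20 had none. Several genes have more than one listed start, and together the genes had 178 windows. Counted by gene, in the window of each gene with the most CpG, the median held 24 CpG dinucleotides, the same as over other protein-coding genes, beside 16 for ZNF genes of chromosome 19 below 34 Mb and 25 for those of other chromosomes. The motif CCGGAAG, the core bound by ETS factors, was found on either strand at 63 of the 135 genes (46.7%). It was at 38.7% of the ZNF genes of chromosome 19 below 34 Mb, 34.4% of those of other chromosomes and 14.5% of other protein-coding genes. GGGCGG, the GC box, was at 65.2% of the genes, beside 62.3% of other protein-coding genes. Listed starts were found for 79.1% of the other protein-coding genes, against 87.1% of the genes described, too few for a comparison, so the values of other genes are given beside them as a description. Counted by window, the median number of CpG was 22 in the 178 windows of these genes, against 14 in all 35116 windows of the table. CCGGAAG was in 75 of the 178 (42.1%) against 10.3% of all windows and GGGCGG in 60.1% against 45%. The TATA motif TATAAA was in 2.25% against 11.5%, and CCAAT in 36.5% against 34.6%. Matches were counted separately for each motif and may share bases. A match is a description of letters, not of binding.

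A longer motif, CTACNNTTCCCAG, was chosen after the sequences printed here had been read, and its counts are therefore a description. N stands for any base. CTACNNTTCCCAG was found on either strand in 35 of the 178 windows (19.7%) against 0.658% of all 35116 windows. Counted by gene, 30 of the 135 zinc finger genes with a listed start had it (22.2%), against 149 of 15677 other protein-coding genes (0.950%). Of the 75 ZNF genes with a listed start on the same chromosome below 34 Mb, 1 had it, ZNF317. Of the 195 on other chromosomes, 11 had it (5.64%). Most of the 30 genes lay in 2 clusters. They made up 12 of 23 genes with a listed start between 36.18 and 37.78 Mb, and 13 of 19 between 43.53 and 44.50 Mb. The cluster between 57.19 and 58.49 Mb, the one with the most genes, had 1 of 38. ZNF225 carried 3 copies in one window, and ZNF226, ZNF420, ZNF112 and ZNF331 carried 2 in one window. Of the 30 genes, 22 had H3K4me3 at an end or in the gene body in all 4 libraries and 7 had none in any library. The other was ZNF470, which had a peak in 3. Of all 135 zinc finger genes with a listed start, 100 had H3K4me3 in all 4 libraries and 31 in none, counted in the same way.

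The following windows are those the results turn on. Each shows the 250 bases before a listed start, 5′ to 3′ on the strand of the gene, from RefSeq on GRCh38.p14. Capitals mark CCGGAAG, CTACNNTTCCCAG or their reverse complements. The first group shows starts whose H3K4me3 peak was in both DMSO libraries and in neither inhibitor library. ZNF302 and ZNF222 carry CCGGAAG once, and the starts of ZNF331 and ZNF570 shown carry the longer motif 2 times and 1 time. All 4 lie on the plus strand, ZNF302 at chr19:34677428-34677677, ZNF222 at chr19:44025129-44025378, the upstream start of ZNF331 at chr19:53520764-53521013 and the second listed start of ZNF570 at chr19:37469106-37469355.
ZNF302: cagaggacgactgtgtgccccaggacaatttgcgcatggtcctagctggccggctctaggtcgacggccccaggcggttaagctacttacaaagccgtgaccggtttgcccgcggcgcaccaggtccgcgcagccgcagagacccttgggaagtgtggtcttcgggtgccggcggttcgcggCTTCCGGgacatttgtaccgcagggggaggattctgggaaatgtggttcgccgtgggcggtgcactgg
ZNF222: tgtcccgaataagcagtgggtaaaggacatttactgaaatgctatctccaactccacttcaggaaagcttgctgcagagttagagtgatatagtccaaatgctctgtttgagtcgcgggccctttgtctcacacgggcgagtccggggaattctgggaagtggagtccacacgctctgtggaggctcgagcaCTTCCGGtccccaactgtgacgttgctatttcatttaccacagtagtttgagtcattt
ZNF331 upstream start: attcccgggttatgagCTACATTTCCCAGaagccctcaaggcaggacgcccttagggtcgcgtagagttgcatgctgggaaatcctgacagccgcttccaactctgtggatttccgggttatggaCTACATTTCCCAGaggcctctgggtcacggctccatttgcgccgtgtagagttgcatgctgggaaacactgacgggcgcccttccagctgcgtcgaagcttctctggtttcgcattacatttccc
ZNF570 second start: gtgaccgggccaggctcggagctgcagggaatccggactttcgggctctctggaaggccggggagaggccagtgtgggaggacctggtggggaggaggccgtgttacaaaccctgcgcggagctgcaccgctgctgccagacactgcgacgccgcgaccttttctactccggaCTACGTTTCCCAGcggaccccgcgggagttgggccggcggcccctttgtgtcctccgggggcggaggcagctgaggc

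The second group shows starts whose H3K4me3 peak was in all 4 libraries. The downstream start of ZNF331 and the start of ZNF569 belong to peaks next to ones in the first group. ZNF227, ZNF225 and ZNF420 show the longer motif 1, 3 and 2 times. The positions are chr19:53537057-53537306 for ZNF331, chr19:44212282-44212531 for ZNF227, chr19:44113149-44113398 for ZNF225 and chr19:37078183-37078432 for ZNF420, all on the plus strand, and chr19:37467445-37467694 on the minus strand for ZNF569.
ZNF331 next start: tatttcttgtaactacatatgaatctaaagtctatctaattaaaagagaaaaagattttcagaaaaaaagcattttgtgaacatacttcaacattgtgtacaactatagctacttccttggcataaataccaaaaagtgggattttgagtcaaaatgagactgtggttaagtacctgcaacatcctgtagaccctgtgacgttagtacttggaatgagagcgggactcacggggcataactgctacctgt
ZNF569: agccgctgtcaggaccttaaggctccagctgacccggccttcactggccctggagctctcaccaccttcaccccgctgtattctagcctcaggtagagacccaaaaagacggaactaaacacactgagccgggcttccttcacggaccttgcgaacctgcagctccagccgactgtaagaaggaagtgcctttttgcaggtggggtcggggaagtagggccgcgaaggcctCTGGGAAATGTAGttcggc
ZNF227: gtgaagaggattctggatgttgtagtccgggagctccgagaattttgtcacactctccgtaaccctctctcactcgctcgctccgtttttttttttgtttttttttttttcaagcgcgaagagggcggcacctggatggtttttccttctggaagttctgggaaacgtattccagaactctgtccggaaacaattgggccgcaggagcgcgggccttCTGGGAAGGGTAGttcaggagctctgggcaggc
ZNF225: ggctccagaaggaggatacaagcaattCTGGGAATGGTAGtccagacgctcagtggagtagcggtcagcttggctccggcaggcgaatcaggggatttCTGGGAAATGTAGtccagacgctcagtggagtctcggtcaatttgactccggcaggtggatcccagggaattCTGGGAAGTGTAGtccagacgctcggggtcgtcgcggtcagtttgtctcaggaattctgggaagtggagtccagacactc
ZNF420: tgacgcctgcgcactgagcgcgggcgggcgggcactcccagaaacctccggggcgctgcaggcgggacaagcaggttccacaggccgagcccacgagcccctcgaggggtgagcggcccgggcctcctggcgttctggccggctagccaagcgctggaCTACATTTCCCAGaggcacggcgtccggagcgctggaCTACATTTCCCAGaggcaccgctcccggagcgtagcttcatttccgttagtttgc

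The third group shows the starts of the 2 genes among the 155 with H3K27ac at their ends in all 4 libraries, ZNF787 and ZNF296. Their printed bases hold 27 and 20 CpG. Both lie on the minus strand, at chr19:56121296-56121545 and chr19:45076479-45076728.
ZNF787: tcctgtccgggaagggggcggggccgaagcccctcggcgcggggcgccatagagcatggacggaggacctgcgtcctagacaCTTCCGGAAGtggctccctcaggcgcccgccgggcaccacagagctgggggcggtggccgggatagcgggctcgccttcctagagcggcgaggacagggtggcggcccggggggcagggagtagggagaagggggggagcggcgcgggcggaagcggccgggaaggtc
ZNF296: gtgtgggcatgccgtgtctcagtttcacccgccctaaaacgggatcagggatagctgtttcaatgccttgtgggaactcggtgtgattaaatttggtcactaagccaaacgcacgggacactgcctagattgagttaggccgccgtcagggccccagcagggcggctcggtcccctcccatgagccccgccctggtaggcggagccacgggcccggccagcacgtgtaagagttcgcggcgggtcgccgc

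The last group shows 2 starts with no peak of any mark in any library. The printed bases hold 28 CpG for ZNF677 and 11 for ZNF154. Both lie on the minus strand, at chr19:53254824-53255073 and chr19:57709205-57709454.
ZNF677: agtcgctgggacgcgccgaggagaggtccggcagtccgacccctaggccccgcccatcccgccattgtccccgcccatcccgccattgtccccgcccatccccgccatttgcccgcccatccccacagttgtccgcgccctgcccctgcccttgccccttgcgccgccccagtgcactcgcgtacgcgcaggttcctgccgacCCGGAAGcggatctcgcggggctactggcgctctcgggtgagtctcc
ZNF154: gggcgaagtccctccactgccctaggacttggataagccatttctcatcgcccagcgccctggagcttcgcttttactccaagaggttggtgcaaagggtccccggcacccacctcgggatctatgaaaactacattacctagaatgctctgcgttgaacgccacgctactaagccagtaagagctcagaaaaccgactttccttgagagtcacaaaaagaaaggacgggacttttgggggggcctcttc

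The first comparison asked how many of the genes carried each mark. A gene counted as marked when a peak overlapped by at least 1 bp the 2 kb on either side of one of its ends. H3K4me3 was found at 103, 101, 97 and 96 of the 155 genes in DMSO 1, DMSO 2, inhibitor 1 and inhibitor 2. As shares these are 66.45%, 65.16%, 62.58% and 61.94%, and both inhibitor values lay below both DMSO values. The mean was 65.8% ± 0.91 (SD, n = 2) in the DMSO libraries and 62.3% ± 0.46 (SD, n = 2) in the inhibitor libraries. The difference of -3.55 percentage points had an exact two-sided permutation p of 0.33, the smallest that 4 libraries can give. With the lists cut to their 10048 widest peaks the difference was 5.48 points in the opposite direction. The sign of this difference thus changed when the lists were made equal in length by width. That cut removes the narrowest peaks, and more of them from the longer DMSO lists. Peaks at the zinc finger genes were short, so the cut cannot tell list length and peak width apart.

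H3K4me3 was more frequent at these genes than at other genes in every library. The share exceeded that of the other 19819 protein-coding genes by 11.6 percentage points on average (10.7 to 12.9, 4 of 4 libraries, exact two-sided sign-flip p = 0.13, the smallest that 4 libraries can give). ZNF genes of other chromosomes had a higher share still, with means of 76.6% and 71.7% in the DMSO and inhibitor libraries. The ZNF genes of chromosome 19 below 34 Mb had 67.65% and 60.6%. The 619 other genes of the same stretch of 19q had 50.8% and 44.6%. The gap between the zinc finger genes and other genes was 1.38 points larger with the inhibitor than with DMSO, with an exact permutation p of 0.33.

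H3K27ac was rare at the same genes. It was found at 21, 4, 8 and 3 of the 155, or 13.55%, 2.58%, 5.16% and 1.94%, in the same order. DMSO 1 stood above the rest, and DMSO 2 lay between the inhibitor libraries. The means were 8.065% ± 7.76 (SD, n = 2) and 3.55% ± 2.28 (SD, n = 2), a difference of -4.52 points with an exact two-sided permutation p of 0.667. Without DMSO 1 the difference was 0.968 points in the opposite direction. The ZNF genes of chromosome 19 below 34 Mb had means of 7.65% and 2.94%. The share lay below that of other genes in all 4 libraries, by 8.47 points on average (range -10.8 to -5.78 points, exact sign-flip p = 0.13).

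H3K4me1 was found at 22, 5, 0 and 1 of the 155 genes, or 14.2%, 3.23%, 0% and 0.645%. Both DMSO values lay above both inhibitor values, and DMSO 1 held most of the peaks. The difference of means was -8.39 points with an exact two-sided permutation p of 0.33. It was -2.90 points without DMSO 1, -13.87 points without DMSO 2 and -0.968 points with lists of equal length. Other genes went from 25.75% to 5.49% on average, along with the shorter H3K4me1 lists of the inhibitor libraries. In every library the share of zinc finger genes was the lower one, by 11.1 points on average (range -23.8 to -4.85 points, exact sign-flip p = 0.13). For ZNF genes of other chromosomes the means were 21.3% and 2.11%, and for those of chromosome 19 below 34 Mb they were 7.65% and 0%.

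**Figure D1:**
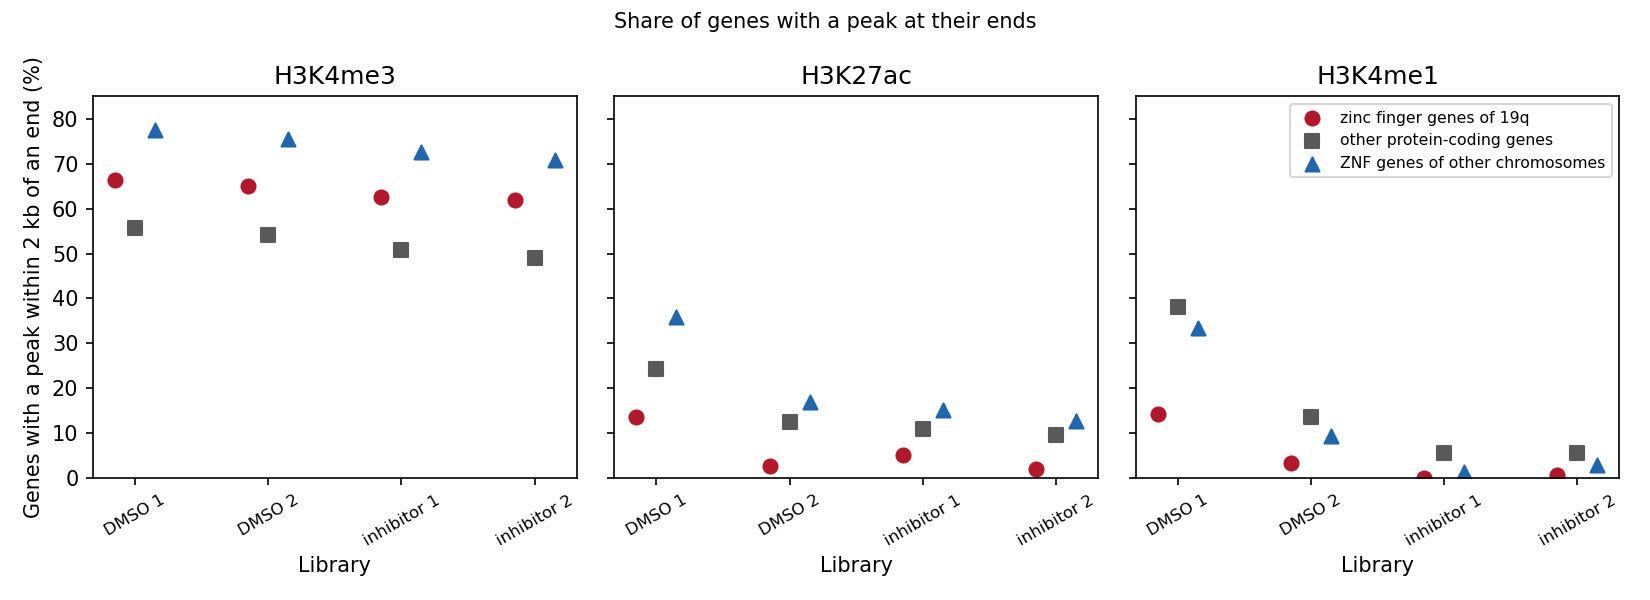
Share of genes with a peak within 2 kb of an end (%, vertical axis) in each of the 4 libraries of a mark (horizontal axis), for the 155 zinc finger genes of 19q (circles), all other protein-coding genes (squares) and ZNF genes of other chromosomes (triangles). For H3K4me3 the circles lie above the squares in all 4 libraries, and for H3K27ac and H3K4me1 they lie below them.

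The next comparison followed each gene through the 4 libraries of a mark. H3K4me3 was present at the ends of 96 of the 155 genes in all 4 libraries (61.9%), against 49.0% of all protein-coding genes. It was absent in all 4 from 52 genes (33.5%), against 44.1%. Lost genes were those with an end peak in both DMSO libraries and in no inhibitor library, and gained genes showed the reverse. Of the 101 genes with H3K4me3 in both DMSO libraries, 4 were lost (3.96%), against 5.67% of all genes. Of the 52 genes with it in neither DMSO library, 0 were gained, against 0.0114%. The count lost was close to the background.

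**Figure D2:**
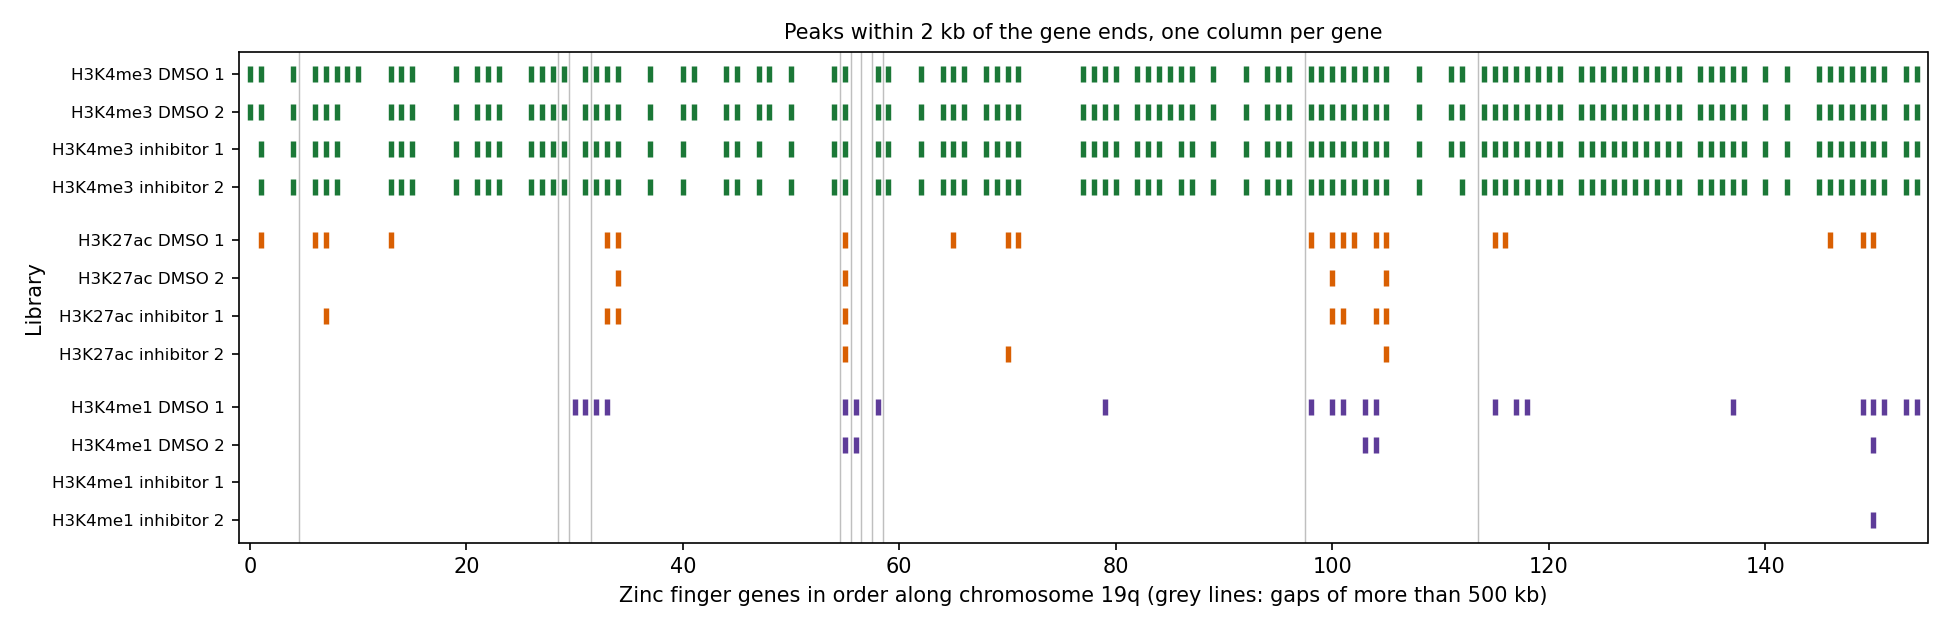
Presence of a peak within 2 kb of the ends of each zinc finger gene (tick), with the 155 genes in order along the chromosome on the horizontal axis and the 12 libraries on the vertical axis. Grey lines mark gaps of more than 500 kb between genes. H3K4me3 ticks repeat in the same columns in all 4 libraries at 96 genes, while H3K27ac repeats in all 4 at 2 genes and H3K4me1 at 0.

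The 4 lost genes had narrow peaks. The covered length is the summed length of the peaks touching a gene's end windows. At ZNF302 it was 1537 and 1237 bp with DMSO, at ZNF222 1247 and 1228 bp, at ZNF227 1510 and 1306 bp, and at ZNF888 1381 and 1358 bp. With the inhibitor it was 0 in both libraries at each. In the DMSO list where it ranked lower, each of these peaks lay between the 6.75 and 11 percentile of peak width. The peak at ZNF302 also touched the end window of SCGB2B2. For ZNF227 the call concerns the outer end of the gene only. Its listed RefSeq start lies inside the gene body and kept a peak of 1792, 1909, 1896 and 1632 bp in the 4 libraries. Counted at listed starts alone, ZNF302 and ZNF222 were lost. With lists of equal length 0 were lost and 4 were gained, ZNF615, ZNF28, ZNF772 and ZNF584, whose short peaks are described further on. These lists keep the widest peaks, so short peaks are removed from the longer DMSO lists first. The shares of all genes lost and gained were not computed for listed starts or lists of equal length.

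Partial patterns were few. ZNF470 had 1493 and 1192 bp with DMSO and 1137 bp in inhibitor 1, with no peak in inhibitor 2. ZNF529 and ZNF382, which overlap head to head, shared a peak of 1218 bp that was in DMSO 1 alone. ZNF529 kept a second peak in its gene body in all 4 libraries, of 2250, 2414, 2184 and 1942 bp, over a listed start.

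Peaks of the 4 libraries were also merged into regions, in an alternative chosen after the data had been seen. In or within 2 kb of the zinc finger genes there were 121 H3K4me3 regions, of which 120 had a peak in both DMSO libraries and 112 in all 4. Of the 120, 6 were lost (5.00%), against 8.81% of all such regions at protein-coding genes, and 0 were gained. These 6 touched 7 genes, the 4 above and ZNF331, ZNF569 and ZNF570.

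ZNF331, which is imprinted in some tissues, showed both states inside one gene. The region over its upstream start, chr19:53520508-53522063, had peaks of 1556 and 1196 bp with DMSO and none with the inhibitor. The region over the next listed start had 2163 and 2036 bp with DMSO against 1829 and 1692 bp with the inhibitor. The upstream start is the one that carries CTACNNTTCCCAG 2 times, and the downstream window has neither motif in capitals and 3 CpG in its printed bases. The longer motif was also at printed starts whose peak was in all 4 libraries, as at ZNF569 and ZNF420. A link between motif and loss was not tested.

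ZNF569 and ZNF570 share a head-to-head promoter, and it split in the same way. The region chr19:37468812-37470194, over the second listed start of ZNF570, had peaks of 1275 and 1383 bp with DMSO and none with the inhibitor. The neighbouring region chr19:37466326-37468047, over the start of ZNF569 and the first listed start of ZNF570, kept peaks of 1712, 1649, 1488 and 1035 bp. At the level of genes both counted as marked in all 4 libraries, with a covered length that went from 2987 and 3032 bp to 1488 and 1035 bp. This was the largest decrease in covered length among the 96 genes, with a log2 ratio of -1.28.

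Most genes marked in all 4 libraries had shorter peaks with the inhibitor. The median covered length over the 96 genes was 1939 and 1813 bp with DMSO against 1602 and 1465 bp with the inhibitor. Both inhibitor medians lay below both DMSO medians, and the difference of mean log2 medians was -0.29 with an exact two-sided permutation p of 0.33. At 76 of the 96 genes (79.2%) both inhibitor values were below both DMSO values, against 83.4% of all genes. At 0 genes were both above, against 0.491%, and at 20 they overlapped. The median log2 ratio was -0.26 (quartiles -0.37 and -0.17), beside -0.27 for other genes. Shorter H3K4me3 with the inhibitor was thus found at most genes of both groups.

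The zinc finger genes had shorter H3K4me3 than other genes under both treatments. The 9687 other genes marked in all 4 libraries had medians of 2531, 2362, 2091 and 1913 bp. The median log2 covered length of the zinc finger genes was lower in all 4 libraries, by a log2 difference of -0.38 on average (exact two-sided sign-flip p = 0.13). ZNF genes of chromosome 19 below 34 Mb had medians of 1930, 1798, 1606 and 1494 bp. ZNF genes of other chromosomes had 2316, 2198, 1978 and 1794 bp. Short peaks were thus also seen at the ZNF genes of chromosome 19 below 34 Mb.

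**Figure D3:**
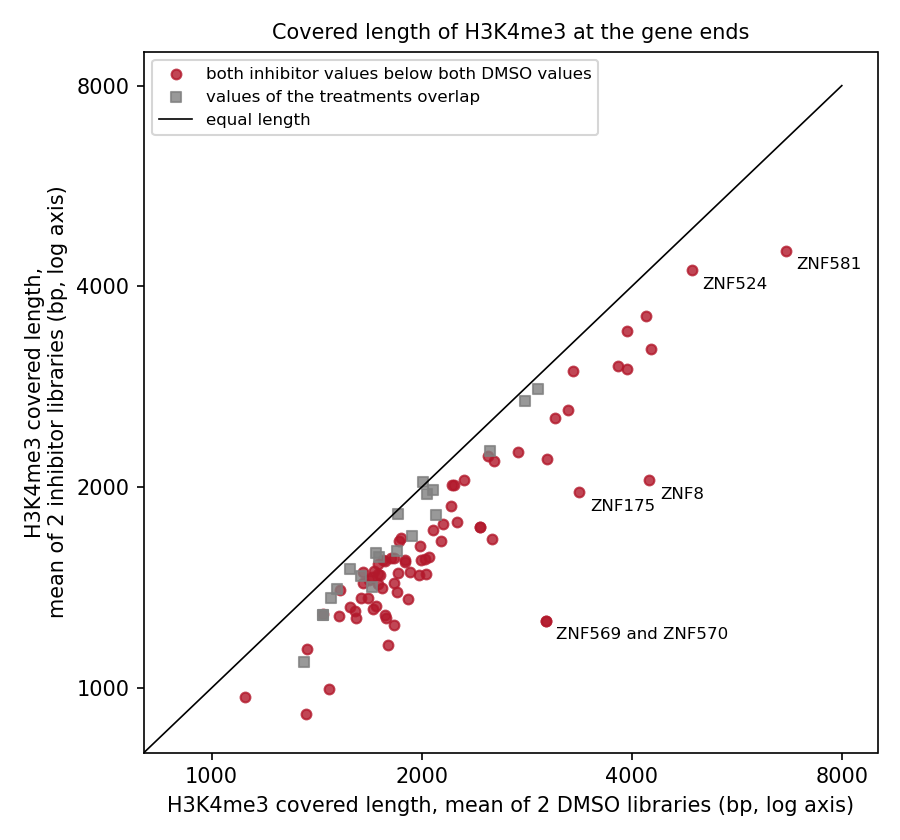
Covered length of H3K4me3 at the ends of the 96 zinc finger genes marked in all 4 libraries, with the mean of the DMSO libraries on the horizontal axis and of the inhibitor libraries on the vertical axis (bp, both log axes); each point is a gene and the line marks equal length. Circles are the 76 genes whose inhibitor values both lie below both DMSO values, and squares are the 20 whose values overlap; ZNF569 and ZNF570 share one point.

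The largest covered lengths of H3K4me3 were mostly sums over several peaks, some of them at the start of a neighbouring gene. ZNF581 had 8287, 5017, 4765 and 4285 bp in the order DMSO 1, DMSO 2, inhibitor 1 and inhibitor 2. ZNF580, which lies within ZNF581 and so shares peaks with it, had 4738, 3792, 3404 and 3032 bp, which is 1 unbroken peak in DMSO 1. ZNF524 had 4851, 4910, 4291 and 4172 bp, made up of a peak over the start of FIZ1 and another over that of ZNF865. ZNF432 had 4305, 4068, 3913 and 3312 bp, of which its own start peak made up 2067, 1856, 1846 and 1348 bp and the rest lay over the start of ZNF614. ZNF766 had 4140, 3746, 3523 and 3341 bp, of which its own start peak made up 1802, 1894, 1620 and 1617 bp. In each of the 5 genes both inhibitor values were below both DMSO values.

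The smallest covered lengths belonged to ZNF329, with 1118, 1118, 990 and 946 bp, and to ZNF772, with 1321, 1407, 1085 and 742 bp. ZNF28, ZNF584 and ZNF615 complete the 5 smallest. ZNF28 had 1517, 1200, 1249 and 941 bp, with treatments that overlap. ZNF584 had 1574, 1376, 1204 and 786 bp, and ZNF615 had 1376, 1363, 1166 and 1118 bp. For ZNF329 and ZNF584 these values come from the outer end of the gene, and a wider peak lay over a listed start in the gene body. It was 1722, 1437, 1309 and 1409 bp at ZNF329 and 2295, 2346, 2011 and 2032 bp at ZNF584.

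After ZNF569 and ZNF570, the covered length decreased most at ZNF8, a SMAD-binding repressor, with 4293 and 4187 bp against 1959 and 2142 bp (log2 ratio -1.05). Most of this was not a change at its start, where the peak had 2272 and 2322 bp against 1959 and 2142 bp. The rest was a separate peak over the start of ERVK3-1, which was in all 4 libraries with 2021, 1865, 1566 and 1359 bp but touched the window of ZNF8 in the DMSO libraries alone. ZNF175 followed with 3392 and 3340 bp against 2648 and 1281 bp (log2 ratio -0.87). Its start peak had 1608 and 1531 bp against 1214 and 1281 bp, and a second peak at its other end had 1784, 1809 and 1434 bp and was missing in the second inhibitor library. ZNF225 had the one positive log2 ratio, 0.02, with 2090 and 1930 bp against 2027 and 2044 bp, which overlap.

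Most genes with an end peak had a peak over a listed start. Of the 135 genes with a listed start, 93, 91, 88 and 86 had both in the 4 libraries, and 1 in each library had a peak at the other end alone. The end peak and the peak over the start need not be the same. At ZNF227, ZNF329, ZNF584 and ZNF320 the peak over the start lay in the gene body, apart from the end peak. Counted once per gene, whether or not it had an end peak, 103, 102, 100 and 98 genes had a peak over a listed start. The peak there reached a median of 821, 723.5, 563.5 and 553.5 bp upstream and 1137, 1049, 975.5 and 897.5 bp downstream. Both edges were nearer the start in both inhibitor libraries. At other genes the medians went from 1002 and 1294 bp in DMSO 1 to 756 and 1051 bp in inhibitor 2.

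**Figure D4:**
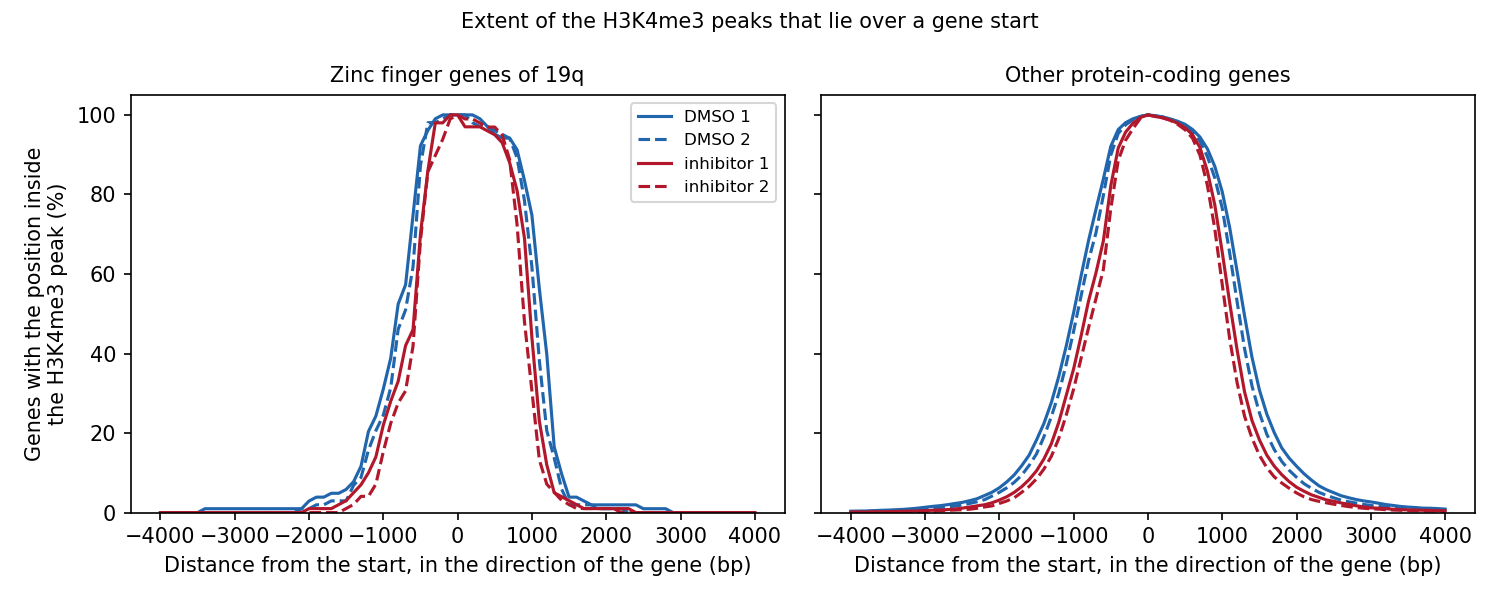
Share of genes (%, vertical axis) whose H3K4me3 peak over the start includes a given distance from it (bp, horizontal axis, downstream to the right), for 98 to 103 zinc finger genes of 19q per library (left) and for other protein-coding genes (right). Solid and dashed lines are the 2 libraries of a treatment; the inhibitor lines lie mostly inside the DMSO lines on both sides of the start, and the left panel is narrower than the right.

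A gene body was taken as the part of a gene more than 2 kb from both ends, and 152 of the 155 genes have one. H3K4me3 was found there at 26, 26, 24 and 24 genes, or 17.1% in both DMSO libraries and 15.8% in both inhibitor libraries. Over other genes the means were 17.1% and 11.9%. For the zinc finger genes the difference of -1.32 points had an exact permutation p of 0.33. With lists cut by width to equal length it was 1.645 points in the opposite direction. It was 0 with bodies taken from 5 kb inside the gene ends and with an overlap of 500 bp. Of the 26 genes, 24 had a body peak in all 4 libraries. At 7 genes every body peak reached into an end window. At the other 19 there was a peak away from the ends, and at 16 of these it lay over a listed RefSeq start.

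At 12 genes the body peak was the only H3K4me3. They were ZNF565, ZNF567, ZNF420, ZNF875, ZNF540, ZNF574, ZNF610, ZNF600, ZNF331, ZNF444, ZNF749 and ZNF814, and all 12 kept it in all 4 libraries. ZNF420 had 2479, 2362, 2352 and 2036 bp over the start printed above. ZNF567 had 2432, 2100, 1959 and 1835 bp. At ZNF565 the peak of 2952, 2681, 2745 and 2635 bp also lay at the end of ZNF146, and the treatments overlapped. Counting ends and bodies together, 110 genes (71.0%) had H3K4me3 in all 4 libraries, against 51.9% of other genes. Then 40 genes (25.8%) had none in any library, against 40.3%. Of the 114 genes with H3K4me3 in both DMSO libraries 3 were lost, ZNF302, ZNF222 and ZNF888, against 650 of 11361 other genes.

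Among the 40 genes with no H3K4me3 anywhere were ZNF154 and ZNF677, whose windows are printed above, and ZNF350, a partner of BRCA1. Listed starts were found for 31 of the 40 (77.5%), too few for a comparison of their promoter sequences with those of marked genes, which is therefore void. H3K27ac and H3K4me1 were scarce in gene bodies. H3K27ac was there at 3, 1, 1 and 1 genes and H3K4me1 at 6, 4, 1 and 0. The mean shares with DMSO and with the inhibitor were 1.32% and 0.658% for H3K27ac, against 8.36% and 7.18% of other genes. For H3K4me1 they were 3.29% and 0.329%, against 24.5% and 8.57%.

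The genes fall into clusters, opened by gaps of more than 500 kb, and 6 clusters hold 5 or more genes. H3K4me3 at the ends in all 4 libraries was most frequent in the cluster nearest the end of the arm, 57.19 to 58.49 Mb, with 34 of 41 genes (82.9%). It was least frequent in a cluster of 5 genes at 34.68 to 34.96 Mb, with 2 of 5, and in the 43.53 to 44.50 Mb cluster, with 10 of 23 (43.5%). The others lay between these, with 13 of 24 genes (54.2%) at 36.18 to 37.78 Mb, 23 of 39 (59.0%) at 51.57 to 53.58 Mb and 10 of 16 (62.5%) at 55.48 to 56.67 Mb. With gene bodies included, the 36.18 to 37.78 Mb cluster had 19 of 24 and the 43.53 to 44.50 Mb cluster 11 of 23. These are counts over neighbouring, related genes, and no test was made between clusters.

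Marked and unmarked genes alternated over short distances. The longest run of consecutive genes with H3K4me3 at the ends in all 4 libraries had 10 genes, from ZNF772 to ZNF551 (chr19:57469586-57690648). ZNF154, unmarked in every library, follows ZNF551 directly. The longest run without H3K4me3 at the ends had 5 genes, ZNF610, ZNF880, ZNF528, ZNF534 and ZNF578 (chr19:52330221-52516882), of which ZNF610 had a body peak. Neighbours can share a peak. Of the 96 genes, 32 had a peak that also touched another gene's end windows, and at 22 of these the other gene was a zinc finger gene of 19q. Neighbouring genes are therefore not independent of each other.

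H3K27ac accompanied H3K4me3 at few of the genes. All 21 genes with H3K27ac at their ends in any library had H3K4me3 in all 4. Of the 96 genes with H3K4me3 in all 4 libraries, 75 (78.1%) had no H3K27ac in any library, against 4844 of 9687 other genes (50%). H3K27ac was in no library at 134 of the 155 genes, against 73.9% of all genes, and in all 4 at 2 genes, against 5.66%. Of the 4 genes with it in both DMSO libraries 0 were lost, against 28.0% of all genes, and 0 of 134 were gained, against 0.413%. The count lost rests on 4 genes. Without DMSO 2 it was 12, and without inhibitor 1 it was 2 (ZNF428 and ZNF524). The share of all genes lost was not computed for these settings. The first DMSO library held the mark alone at 12 genes.

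The 2 genes with H3K27ac in all 4 libraries were ZNF296 and ZNF787. ZNF296 had 3299 and 1261 bp with DMSO against 1311 and 2277 bp with the inhibitor, which overlap. ZNF787 had 1704 and 1562 bp against 1115 and 979 bp, with both inhibitor values lower. ZNF428 had 1526, 1103 and 1066 bp and no peak in inhibitor 2. ZNF524 had 1712, 1427 and 3577 bp and no peak in inhibitor 2.

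A further 5 genes had H3K27ac in 2 libraries. ZNF566, ZNF576, ZNF865 and ZNF580 had it in DMSO 1 and inhibitor 1, with 1325 and 977 bp, 1166 and 1195 bp, 955 and 1720 bp, and 1512 and 923 bp. ZNF766 had it in DMSO 1 (898 bp) and inhibitor 2 (865 bp). None of these 5 had the mark in both libraries of a treatment. The cluster at 55.48 to 56.67 Mb held 6 of the 21 genes with any H3K27ac.

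The low share of H3K27ac was also seen when only genes with an H3K4me3 peak were taken. Each H3K27ac library was set beside the H3K4me3 library of the same treatment and number. The labels do not tell whether such libraries share a culture. An H3K27ac peak overlapped the H3K4me3 peak at 22.3%, 3.96%, 8.25% and 3.12% of the zinc finger genes, against 42.3%, 22%, 19.5% and 17.1% of other genes. The difference was -15.8 points on average (range -19.96 to -11.2 points, lower in 4 of 4 libraries, exact two-sided sign-flip p = 0.13). Because their H3K4me3 is short, the comparison was repeated within quartiles of covered length, in an alternative chosen after the data had been seen. Averaged over the quartiles with equal weight, whatever their number of genes, the mean difference was -8.905 points (exact sign-flip p = 0.13). The gap was thus smaller between genes of like covered length.

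Most of the zinc finger genes lay in the shortest quartile, with 56, 55, 54 and 59 genes in the 4 libraries. There 5.36%, 0%, 0% and 0% had H3K27ac, against 8.88%, 2.87%, 3.04% and 3.67% of other genes. At other genes this quartile had the lowest share in every library. In the longest quartile, which held 11 to 15 zinc finger genes per library, the shares were 60%, 6.67%, 23.1% and 18.2%, against 74.1%, 48.2%, 44.5% and 39.7%. In the second and the third quartile the order of the groups varied between libraries.

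**Figure D5:**
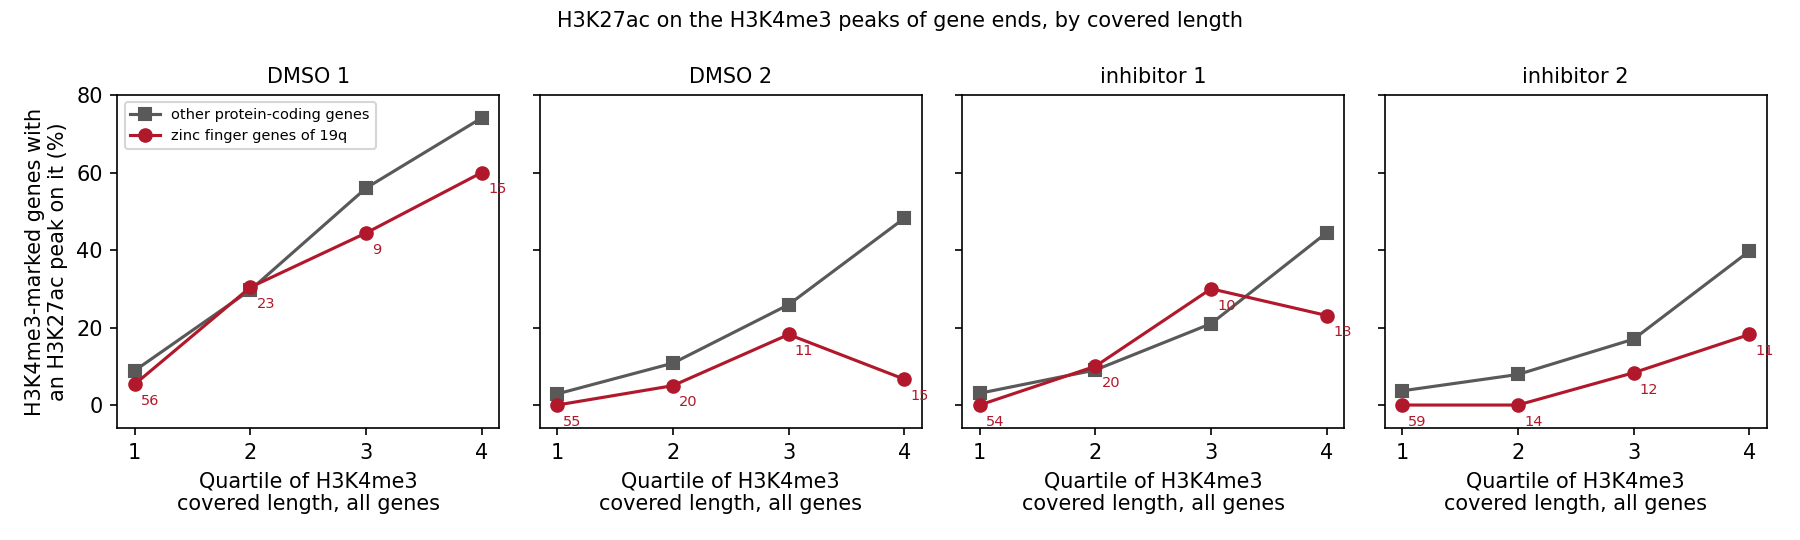
Share of genes with an H3K4me3 peak that had an H3K27ac peak on it (%, vertical axis), by quartile of H3K4me3 covered length over all genes (horizontal axis, 1 the shortest). Each of the 4 panels pairs the H3K4me3 and the H3K27ac library of the same treatment and number. Circles are zinc finger genes of 19q with their number printed beside them, and squares are other protein-coding genes. In the fourth quartile the circles lie below the squares in all 4 panels.

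H3K4me1 was in no library at 133 of the 155 genes, against 61.7% of all genes, and in all 4 at 0, against 3.18%. Of the 22 genes with it in any library, 17 had it in DMSO 1 alone. Of the 5 genes with it in both DMSO libraries 4 were lost, against 55.4% of all genes, and 0 of 133 were gained, against 0.0243%. Without DMSO 2 the count lost was 21, since it then rests on the longest list. The share of all genes lost was not computed for this setting.

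The 4 lost genes were ZNF296, ZNF541, ZNF581 and ZNF580. ZNF296 had 11046 and 5274 bp with DMSO, the widest H3K4me1 of the 4, beside the H3K27ac it kept in all 4 libraries. ZNF581 had 8555 and 2622 bp and ZNF580 had 5368 and 2515 bp, and some of these peaks are shared. ZNF541, a gene of the germ line, had 3073 and 2438 bp and no other mark at its ends. The fifth, ZNF837, kept H3K4me1 in inhibitor 2, with 3175, 1186, 0 and 636 bp. Counting only peaks that touch a single gene, ZNF580 alone was lost, and with lists of equal length ZNF296 alone.

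H3K4me1 on the H3K4me3 peaks, with libraries again paired by treatment and number, was found at few zinc finger genes with H3K4me3. The shares were 19.4%, 3.96%, 0% and 0%, against 56.7%, 15.7%, 4.28% and 4.08% of other genes. The difference was -14.3 points on average (range -37.3 to -4.08 points, exact sign-flip p = 0.13). Across the 3 marks, 64 genes had H3K4me3 in all 4 libraries and neither other mark in any. There were 50 genes with no peak of any mark at their ends, and 9 with both H3K27ac and H3K4me1 in some library.

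The genes of the repressor pathway that KRAB proteins recruit were taken as a list of 20. Of these, 18 had H3K4me3 at their ends in all 4 libraries, among them TRIM28, the corepressor that binds the KRAB box, SETDB1, the H3K9 methyltransferase, and the HP1 genes CBX1, CBX3 and CBX5. The histone chaperone DAXX and UHRF1, which recruits DNMT1, had none at their ends in any. H3K27ac was lost at 3 of the 6 with it in both DMSO libraries, beside 28.0% of all genes. H3K4me3 was lost at 0 of the 18, beside 5.67% of all genes. The other zinc finger symbols of the same stretch, 24 genes, had H3K4me3 in all 4 libraries at 12. Those without it in any library include the imprinted genes PEG3 and ZIM2 and the early embryonic gene ZSCAN4.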

How the data were processed

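The authors deposited 1 peak list for each of the 12 chromatin immunoprecipitation libraries, which gives the positions of peaks in 3 columns without any score. The submitters' processing notes name Bowtie 1.1.2, MACS 1.4.2 and hg38. Read filters, the threshold for peaks and the part the inputs played are not given in the sources. The 4 inputs were not used here.

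Genes were those of the RefSeq table (GRCh38.p14) on chromosomes 1 to 22 and X. Peaks were joined to genes by an overlap of at least 1 bp with windows of 2 kb on both sides of each gene end, in Python 3.11.15 with numpy 2.4.6 and matplotlib 3.10.9, which was tested on simulated data. Shares and median log2 covered lengths were compared by exact two-sided permutation over the 6 assignments of 4 libraries, and gene groups within libraries by exact two-sided sign flips over the 4 libraries. The genes described and the lists were chosen with earlier results of these data known. Genes were named by rule: every gene lost or gained, those with H3K27ac in 2 or more or H3K4me1 in 3 or more libraries, the 5 with the longest and 5 with the shortest H3K4me3, and the 3 with the largest change of covered length in each direction. Other genes named to describe the printed windows, body peaks and motif counts were chosen after their values were seen. Alternatives were windows of 1 and 5 kb, an overlap of 500 bp, whole genes, listed starts, peaks touching 1 gene, lists of equal length and each library left out. Stricter peak scores could not be tried, and counts of zinc fingers and KRAB boxes were not made.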

Additional observations from a re-analysis of the deposited data

How the results depend on the processing

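The 17 results were recomputed in 188 alternatives. Of these, 175 kept the direction, gave a difference of 0 or, for counts, stayed within 1.5 times the count. The difference was 0 for H3K4me3 in bodies taken from 5 kb inside the gene ends and in bodies with an overlap of 500 bp. It was also 0 for H3K27ac in bodies without DMSO 1. In 10 a count moved further and in 3 a difference reversed. With lists cut to equal length (the widest peaks), the treatment difference in the share with H3K4me3 was 5.484 points at gene ends and 1.645 points in gene bodies, both reversed, H3K4me3 was lost at 0 and gained at 4 genes, and H3K4me1 was lost at 1. With peaks that touch a single gene, H3K4me3 was gained at 1 gene, ZNF428, and H3K4me1 lost at 1. With listed starts alone H3K4me3 was lost at 2 genes, and with merged regions at 7. Leaving out 1 library at a time, the H3K27ac difference ran from -10 to 0.9677 points, the latter without DMSO 1. H3K27ac was lost at 0 to 12 genes and H3K4me1 at 4 to 21, the highest counts without DMSO 2. H3K4me3 was lost at 4 to 6. Except for merged regions, the share of all genes lost or gained was not computed in these alternatives. All 3 differences between the zinc finger and other genes at gene ends kept their direction in every alternative run. Gene by gene, libraries that share a number showed little common deviation in covered length. The correlation for H3K4me3 was 0.00186 over the zinc finger genes and 0.0559 over all genes. Over all genes it was 0.0970 for H3K27ac and -0.0143 for H3K4me1. A correlation over genes leaves out a shift of a whole library, so it cannot tell whether such shifts were shared. The lists numbered 1 were longer than those numbered 2 under both treatments for H3K4me3 and H3K27ac, and with DMSO alone for H3K4me1. With the replicate number as a block, the differences were unchanged and p was 0.50, the smallest 2 pairs can give, for H3K4me3 at ends (-3.548 points), its covered length (-0.29, log2) and H3K4me3 in bodies (-1.316 points), and also for H3K27ac at ends (-4.516 points) and H3K4me1 at ends (-8.387 points) and in bodies (-2.961 points). It was 1.0 for H3K27ac in bodies (-0.6579 points). The cause of the changes was not tested. Read depth is unknown, which limits every absence of a peak.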

Other observations

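Among the alternatives, the H3K4me3 gap between the zinc finger genes and other genes was 11.6 percentage points at gene ends and 19.3 points at listed starts (exact sign-flip p = 0.13 in both). The second value covers only the 135 zinc finger genes and 15677 other genes with a listed start, so that the genes and the windows both differ. Counting whole genes with 2 kb on each side over all 155 and 19819 genes gave 16.8 points. Listed starts inside gene bodies, as at ZNF420, ZNF567 and ZNF227, are left out of windows at the outer ends. For H3K27ac the gap was -7.98 points at listed starts, beside -8.47 points at gene ends.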
